A study of Mus musculus with 6 samples.

Results

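The genes of the AMPA and kainate receptor subunits, Gria1 to Gria4 and Grik1 to Grik5, were followed in neurons of the mouse medial mammillary nucleus, a hypothalamic cell group. They were taken by gene name, 9 of the 55414 genes in the deposited table, with the values of all 6 libraries. The first group was 3 libraries of neurons labelled PV-positive (after parvalbumin, a calcium-binding protein), numbered 6, 7 and 8, and the second was 3 libraries of neurons labelled Drd2-positive (after the D2 dopamine receptor), numbered 1, 2 and 3. All came from male mice; the label is the only genotype given, and the sources used here do not state age, the reporter line or how many cells or animals stand behind a library. Fluorescent cells were drawn into glass electrodes from papain-treated slices. Libraries within a group are biological replicates by the series design. The question set by the design was how the receptor genes of the PV neurons compared with those of the Drd2 neurons.

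AMPA and kainate receptors are ion channels that glutamate opens, and each is assembled from several subunits. AMPA receptors carry most of the fast excitatory current at central synapses. Kainate receptors act on both sides of the synapse, and their Grik1 to Grik3 subunits can form channels alone, whereas Grik4 and Grik5 bind kainate tightly and need a partner of the first kind. The pore loop of the subunits holds a glutamine codon that the enzyme encoded by Adarb1 can edit in the RNA of Gria2, Grik1 and Grik2 so that it is read as arginine. An edited Gria2 subunit makes an AMPA receptor that admits little calcium.

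The coding stretch around that codon is shown for the AMPA subunits and for the kainate subunits that form channels alone, because the members differ in the codon and because Gria2 held the largest share of AMPA transcripts below. The capitals mark the codon; the sequences are the unedited genomic ones, 45 bases of spliced coding sequence from GENCODE M21 (GRCm38), 5′ to 3′ on the coding strand.
Gria1: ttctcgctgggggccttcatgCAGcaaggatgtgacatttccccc
Gria2: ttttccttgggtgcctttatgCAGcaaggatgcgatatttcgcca
Gria3: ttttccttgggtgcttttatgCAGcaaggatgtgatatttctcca
Gria4: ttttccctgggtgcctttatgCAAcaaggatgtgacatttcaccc
Grik1: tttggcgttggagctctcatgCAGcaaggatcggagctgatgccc
Grik2: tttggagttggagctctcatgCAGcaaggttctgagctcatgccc
Grik3: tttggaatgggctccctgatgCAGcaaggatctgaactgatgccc
The codon is CAG in Gria1, Gria2 and Gria3 and CAA in Gria4. It is CAG in each kainate member. In Gria2 it lies at chr3:80706911-80706913 on the minus strand, in Gria3 at chrX:41610265-41610267 on the plus strand and in Grik3 at chr4:125691207-125691209 on the plus strand, in coding exons. Over these 45 bases AMPA members matched each other at 80% to 93.3% of positions and kainate members, with Grik4 and Grik5, at 53.3% to 91.1%. An AMPA and a kainate member matched at 60% to 68.9%. Values per gene do not show how much of the RNA was edited.

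The deposited values are FPKM (fragments scaled to 1 kilobase of exon and 1e6 fragments in all), a scale on which genes can be compared with each other. Whole reads could be recovered from these values, and the depth was 23.8 to 33.7 in units of 1e6 fragments. A value of 0 means that the gene was listed at 0. Mitochondrial genes held 9.62% to 31.3% of the summed FPKM in PV and 3.74% to 5.20% in Drd2; this share moves with the groups, and its part in the differences below was not tested. PV replicate 7 stood apart, with 8610 genes at 1 FPKM or more against 10293 to 12398 in the other libraries, and Drd2 replicate 3 held the least Drd2 (7.74 FPKM) and the most Pvalb (99.5 FPKM) of its group. Pvalb was at 349 to 563 FPKM in PV libraries and Drd2 at 0 to 0.0132 FPKM there. The glutamatergic marker Slc17a6 was at 114 to 144 FPKM in PV and 108 to 144 FPKM in Drd2. In these bulk libraries, fewer cells of a type and less RNA per cell cannot be told apart.

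Both classes held Gria2 as the most abundant of the 9 genes, and the clearest contrasts were Gria3, which was at 4 FPKM or more in each PV library and close to 0 in each Drd2 library, and Grik3, which was lower in PV. The members were picked with the results of this same contrast known, so their levels and differences are a description and carry no test. Differences are means of log2(FPKM + 1), PV minus Drd2, with the ordinary SE over 3 libraries a group; this scale understates the change of low genes. Across the 11478 genes with at least 1 FPKM in 3 libraries, 0.261% passed in limma (adjusted p under 0.05 after Benjamini-Hochberg adjustment, 30 genes) and 12.8% had an unadjusted p under 0.05. Of the 7 subunit genes in that fit 0 passed, and 2 had an unadjusted p under 0.05 (Gria3 and Grik3). With limma voom on recovered reads, where 0.192% of all genes passed, 0 of the 7 passed and 1 had an unadjusted p under 0.05 (Gria3). Grik1 and Grik4 reached 1 FPKM in only 2 libraries each and were left out of the fit. Gria3 entered it through its PV libraries alone, so it had to differ.

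**Figure D1:**
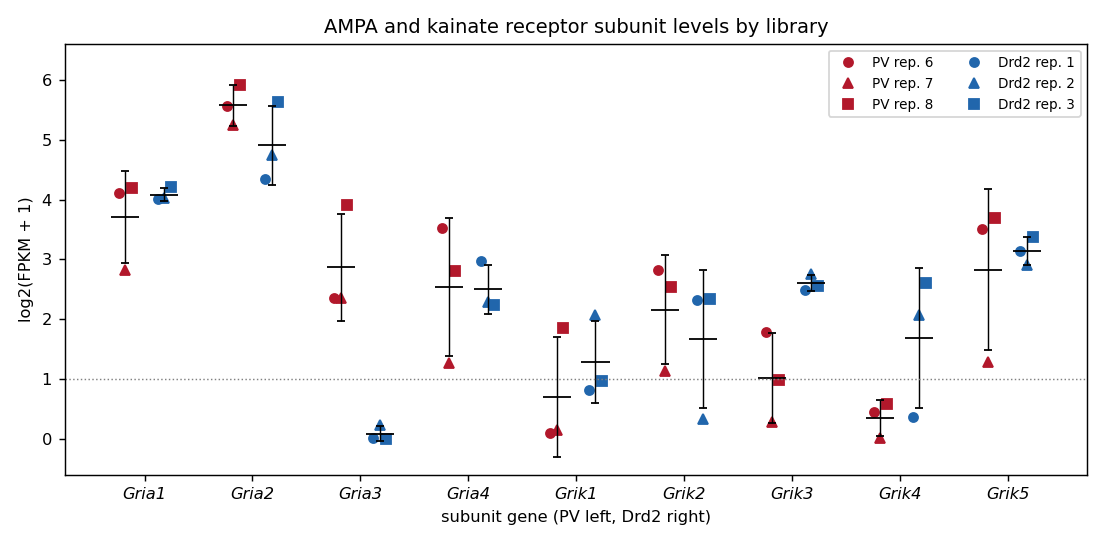
Level of each subunit gene as log2(FPKM + 1) in each library (red: PV, blue: Drd2), with the group mean (line) and SD (bars, n = 3); the dotted line is 1 FPKM. Gria3 and Grik3 are the members whose groups do not overlap, Gria3 being higher and Grik3 lower in PV.

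Gria2, the subunit that sets calcium entry, is encoded on chromosome 3 (mm10, 80681450 to 80802835, ENSMUSG00000033981). It was at 46.3, 36.9 and 59.6 FPKM in PV replicates 6, 7 and 8, against 19.4, 25.7 and 48.4 FPKM in Drd2 replicates 1, 2 and 3. Drd2 replicate 3 lay inside the PV range, so the groups overlap. The log2 difference was 0.67 ± 0.43 (SE). It was 1.03 without Drd2 replicate 3, 0.84 without PV replicate 7 and 1.20 without both of these libraries.

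Gria1, a subunit linked to activity-dependent insertion of receptors, lies on chromosome 11 (57011387 to 57330244, ENSMUSG00000020524). Its levels were 16.2, 6.11 and 17.2 FPKM in PV replicates 6, 7 and 8, against 15.1, 15.3 and 17.5 FPKM in Drd2 replicates 1, 2 and 3. Only PV replicate 7 was apart, and the Drd2 libraries were close together (SD 1.35 FPKM). The log2 difference of -0.37 ± 0.44 (SE) was 0.07 without PV replicate 7 and 0.13 without PV replicate 7 and Drd2 replicate 3.

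Gria3 is an X-linked AMPA subunit gene (chromosome X, 41400854 to 41678601, ENSMUSG00000001986). It was at 4.14, 4.09 and 14.0 FPKM in PV replicates 6, 7 and 8, from 1217, 1116 and 3903 recovered reads. In Drd2 replicates 1 and 2 it was at 0.0150 and 0.172 FPKM, from 5 and 51 reads, and in Drd2 replicate 3 it was listed at 0, where 3 reads would be 0.0128 FPKM (counting error only). Every PV library was therefore above every Drd2 library. The log2 difference was 2.79 ± 0.52 (SE), and it was 3.05 without PV replicate 7, 2.75 without Drd2 replicate 3 and 3.01 without both of these libraries. It depended on the scale, from 1.20 with a pseudocount of 5 FPKM to 8.40 in voom, and stayed above 0 in each of the 16 alternatives. Among tested genes, 5.83% had groups that did not overlap with PV higher, a share from which nothing is read for a gene chosen on this contrast.

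Marker lists of cell types were summed per library, and some of the sums did not overlap between the groups. The 7 markers of oligodendrocyte precursors, cells that also carry AMPA receptors, summed to 19.6 to 25.0 FPKM in PV and 1.67 to 10.4 FPKM in Drd2. Of these, Lhfpl3 was at 4.61, 10.6 and 8.02 FPKM in PV and 1.67, 3.85 and 2.49 FPKM in Drd2, with no overlap. In PV the sum also held C1ql1 at 14.2 FPKM in replicate 6, Olig2 at 8.94 FPKM in replicate 7 and Neu4 at 16.7 FPKM in replicate 8, and in Drd2 it held Olig2 at 4.56 FPKM in replicate 2 and 7.73 FPKM in replicate 3. Gpr17 was at 0.988 FPKM in PV replicate 6 and listed at 0 in the other libraries. The defining members Pdgfra and Cspg4 were at 0 to 1.13 FPKM and 0 to 0.0450 FPKM in PV and at 0 to 0.163 FPKM and 0 to 0.0279 FPKM in Drd2. The 8 astrocyte markers summed to 519 to 563 FPKM in PV and 145 to 504 FPKM in Drd2, nearly all of it Aldoc. Aldoc itself overlapped, at 485 to 512 FPKM in PV and 137 to 486 FPKM in Drd2. Aldh1l1 did not, at 0.992 to 8.54 FPKM in PV and 0.295 to 0.975 FPKM in Drd2. Slc1a3, Gja1 and Slc4a4 were highest in Drd2 replicate 2, at 11.7, 4.60 and 6.42 FPKM. The 5 blood markers summed to 743 to 3204 FPKM in PV and 0 to 12.1 FPKM in Drd2. The 7 pan-neuronal markers also did not overlap as a sum, at 1395 to 1678 FPKM in PV and 1072 to 1285 FPKM in Drd2. Snap25 (751 to 1109 FPKM in PV, 202 to 503 FPKM in Drd2) and Nefl were higher in PV without overlap. Tubb3 was lower without overlap (61.7 to 311 FPKM in PV, 428 to 563 FPKM in Drd2), and Rbfox3, Stmn2, Elavl4 and Syt1 overlapped. The 4 GABAergic markers overlapped, at 2.56 to 22.9 FPKM in PV and 6.64 to 19.3 FPKM in Drd2, with Gad2 at 1.18 to 10.6 FPKM in PV and 0 to 0.0850 FPKM in Drd2. The 10 microglia markers overlapped as well, at 448 to 1393 FPKM in PV and 23.9 to 3689 FPKM in Drd2. This overlap came from Drd2 replicate 3 (3689 FPKM) alone, as Drd2 replicates 1 and 2 were at 23.9 and 92.9 FPKM. The 8 oligodendrocyte markers (68.3 to 320 FPKM in PV, 74.2 to 1349 FPKM in Drd2) and the 4 ependymal markers (2.26 to 3.73 FPKM in PV, 0.0226 to 8.05 FPKM in Drd2) overlapped. The 7 vascular markers (0.0232 to 7.07 FPKM in PV, 0.0191 to 0.756 FPKM in Drd2) did too, with Cldn5 at 0 in every library. As sums, the lists without overlap were all higher in PV, as Gria3 was, whereas Grik3 was lower in PV. The part of the transcripts of any of these lists in the differences of the subunit genes and of the partner genes below was not tested.

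Gria4, an AMPA subunit with fast kinetics, lies on chromosome 9 (4417896 to 4796234, ENSMUSG00000025892). It was at 10.5, 1.40 and 6.01 FPKM in PV replicates 6, 7 and 8, against 6.86, 3.90 and 3.73 FPKM in Drd2 replicates 1, 2 and 3. The highest and the lowest values were both in PV, and the groups overlap. The log2 difference of 0.03 ± 0.71 (SE) ran from -0.47 without PV replicate 6 to 0.66 without PV replicate 7, and 7 of 16 alternatives turned its sign.

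The order of the AMPA levels differed below Gria2. In PV it was Gria2 (47.6 ± 11.4 FPKM; SD, n = 3), Gria1 (13.2 ± 6.15), Gria3 (7.40 ± 5.69) and Gria4 (5.97 ± 4.54), and the ranges of the last 3 overlapped with their neighbours. In Drd2 it was Gria2 (31.2 ± 15.3 FPKM), Gria1 (16.0 ± 1.35), Gria4 (4.83 ± 1.76) and Gria3, and no neighbouring ranges overlapped. As a share within a library, a measure that library scaling cannot move, Gria2 made up 60.0%, 76.1% and 61.6% of the summed AMPA subunit FPKM in PV replicates 6, 7 and 8, against 46.9%, 57.1% and 69.5% for Drd2 replicates 1, 2 and 3. Averaged over 3 libraries a group, the share was 65.9% ± 8.86 (SD) in the PV libraries and 57.8% ± 11.3 (SD) in the Drd2 libraries. They overlapped, and the gap of 8.07 percentage points was 2.60 without Drd2 replicate 1, 2.97 without PV replicate 7 and 13.9 without Drd2 replicate 3. Gria1 made up 21.03%, 12.6% and 17.8% in PV against 36.5%, 33.9% and 25.2% in Drd2, with no overlap. Its FPKM did overlap between the groups, and the shares of one sum are tied to each other. Gria3 made up 5.37%, 8.43% and 14.4% in PV and at most 0.382% in Drd2.

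**Figure D2:**
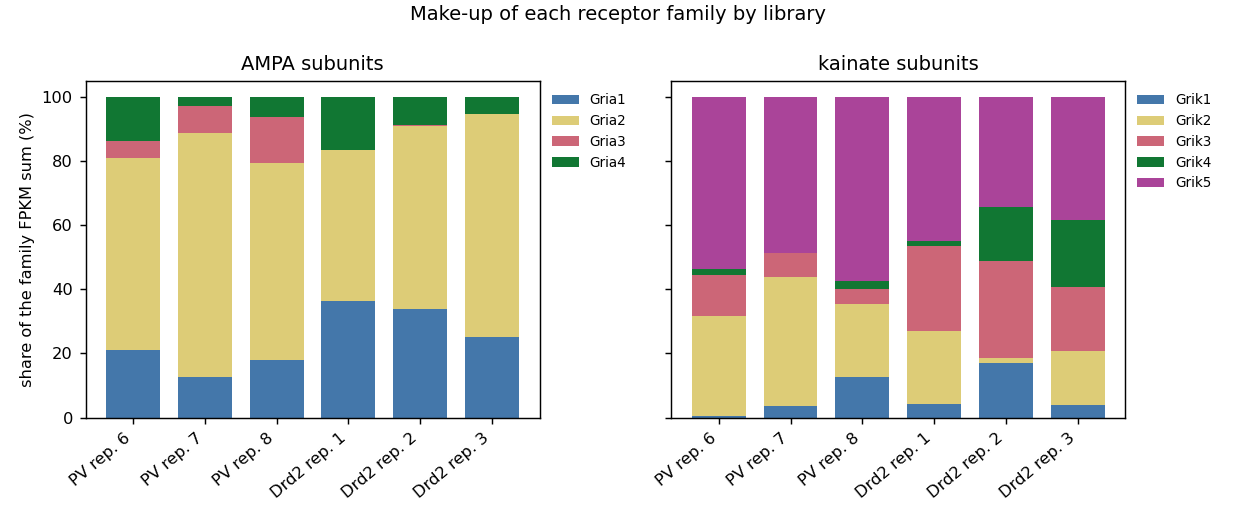
Share (%) of each subunit in the summed FPKM of its family, per library, PV libraries on the left and Drd2 libraries on the right of each panel. Gria3 takes 5.37% to 14.4% of the AMPA sum in PV and at most 0.382% in Drd2, and Grik3 takes 4.70% to 12.7% of the kainate sum in PV and 20.0% to 30.4% in Drd2.

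Among the kainate subunits that can form channels alone, Grik3 showed the widest gap between the groups. Grik3 encodes a subunit with low affinity for glutamate and lies on chromosome 4 (125490700 to 125714173, ENSMUSG00000001985). It was at 2.46, 0.217 and 0.979 FPKM in PV replicates 6, 7 and 8, against 4.64, 5.75 and 4.85 FPKM in Drd2 replicates 1, 2 and 3. The groups did not overlap, and the Drd2 libraries were close together (SD 0.587 FPKM). The log2 difference was -1.58 ± 0.44 (SE), and it was -1.21 without PV replicate 7 and -1.24 without PV replicate 7 and Drd2 replicate 3. It stayed below 0 in each of the 16 alternatives, from -2.61 in voom to -0.71 with a pseudocount of 5 FPKM. The unadjusted p under 0.05 in limma was less stable. It held with a pseudocount of 5 FPKM, with no filter, after rescaling to TPM and without PV replicate 6. It did not hold in voom, with quantile normalization or with a pseudocount of 0.1 FPKM. Leaving out PV replicate 7, PV replicate 8 or any of the Drd2 libraries also removed it. Groups that did not overlap with PV lower made up 13.1% of tested genes.

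Grik2, the kainate subunit of many forebrain neurons, lies on chromosome 10 (49094833 to 49788766, ENSMUSG00000056073). It was at 6.09, 1.19 and 4.78 FPKM in PV replicates 6, 7 and 8, against 3.99, 0.264 and 4.07 FPKM in Drd2 replicates 1, 2 and 3. A single library was low in each group. The log2 difference was 0.50 ± 0.85 (SE). It was 1.01 without PV replicate 7, 0.83 without Drd2 replicate 3, 1.35 without both of these libraries and -0.17 without Drd2 replicate 2.

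Grik1, the other subunit of this kind, was low and uneven (chromosome 16, 87895900 to 88290265, ENSMUSG00000022935). It was at 0.0649, 0.102 and 2.60 FPKM in PV, against 0.763, 3.22 and 0.955 FPKM in Drd2. PV replicate 8 and Drd2 replicate 2 were the libraries above 1 FPKM. The log2 difference was -0.59 ± 0.70 (SE) and 0.01 with quantile normalization.

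The subunits that need a partner were Grik5 and Grik4. Grik5 (chromosome 7, 25009849 to 25072346, ENSMUSG00000003378) was at 10.4, 1.43 and 11.96 FPKM in PV replicates 6, 7 and 8, against 7.86, 6.46 and 9.33 FPKM in Drd2 replicates 1, 2 and 3. PV replicates 6 and 8 were above every Drd2 library and PV replicate 7 below. The log2 difference of -0.31 ± 0.79 (SE) was 0.46 without PV replicate 7, 0.58 without PV replicate 7 and Drd2 replicate 3, and 0.07 with quantile normalization. Grik4 (chromosome 9, 42518135 to 42944493, ENSMUSG00000032017) was at 0.371, 0.00606 and 0.497 FPKM in PV, the middle value being 1 read, against 0.288, 3.19 and 5.09 FPKM in Drd2. Drd2 replicate 1 lay within the PV range. The log2 difference was -1.33 ± 0.70 (SE), -0.87 without Drd2 replicate 3 and -0.70 without PV replicate 7 and Drd2 replicate 3.

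Grik5 had the highest kainate mean in both groups, at 7.92 ± 5.68 FPKM in PV and 7.88 ± 1.43 FPKM in Drd2 (SD, n = 3 each). In PV it was followed by Grik2 (4.02 ± 2.54), Grik3 (1.22 ± 1.14), Grik1 (0.923 ± 1.45) and Grik4 (0.291 ± 0.255), and every neighbour overlapped. In Drd2 it was followed by Grik3 (5.08 ± 0.587), a step without overlap, unlike the steps after it, then by Grik4 (2.86 ± 2.42), Grik2 (2.77 ± 2.17) and Grik1 (1.64 ± 1.36). Grik2 made up 31.4%, 40.4% and 23.0% of the kainate sum in PV, against 22.7%, 1.40% and 16.8% in Drd2. Grik5 made up 53.6%, 48.5% and 57.5% of it in PV, against 44.8%, 34.2% and 38.4% in Drd2. Both shares were higher in every PV library than in any Drd2 library, for Grik2 only narrowly (23.0% in PV replicate 8, 22.7% in Drd2 replicate 1). The FPKM of both genes overlapped between the groups. Shares of one sum are tied to each other, so a higher share is not by itself a higher level. The Grik3 share was 12.7%, 7.40% and 4.70% in PV, against 26.5%, 30.4% and 20.0% in Drd2, and it was lower in every PV library. Grik4 and Grik5 together made up 48.7% to 59.8% in PV and 46.5% to 59.3% in Drd2.

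The AMPA subunits summed to 77.1, 48.5 and 96.8 FPKM in PV and to 41.3, 45.1 and 69.6 FPKM in Drd2. The kainate subunits summed to 19.4, 2.94 and 20.8 FPKM in PV and to 17.5, 18.9 and 24.3 FPKM in Drd2. Both sums overlapped between the groups, and PV replicate 7 held little kainate transcript. Their ratio did not overlap: AMPA exceeded kainate 3.98, 16.5 and 4.65 times in PV replicates 6, 7 and 8, against 2.36, 2.39 and 2.87 times for Drd2 replicates 1, 2 and 3. Over all 9 members 4 had a difference above 0 and 5 below, with a median of -0.31, beside -0.28 over all tested genes, of which 38.4% were above 0. The median of the 9 was 0.46 without PV replicate 7 and 0.07 with quantile normalization.

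**Figure D3:**
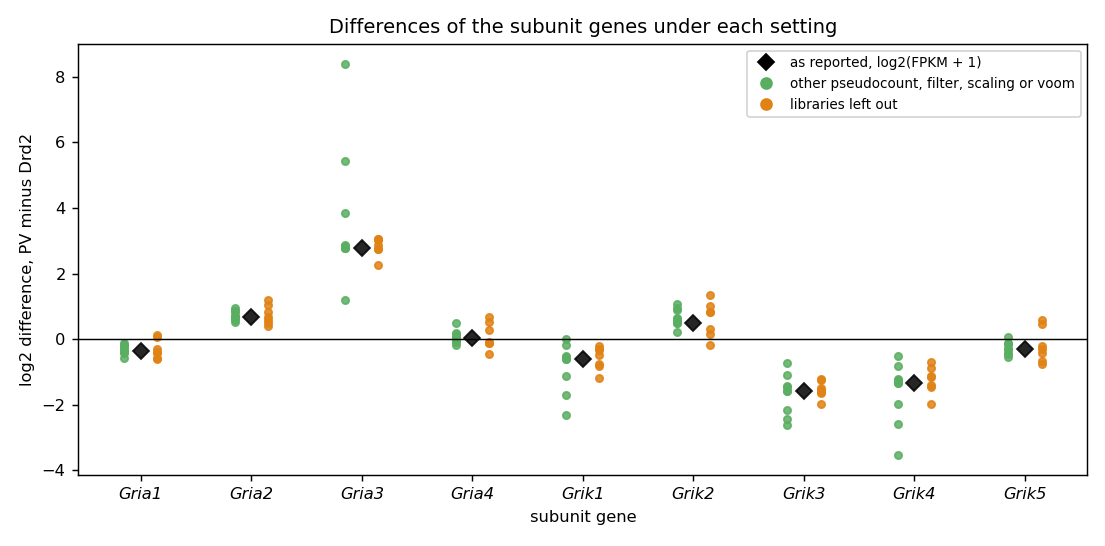
Log2 difference of each subunit gene, PV minus Drd2, as reported (black) and under other pseudocounts, filters, scalings or voom (green) and with libraries left out (orange). Gria2 and Gria3 stay above 0 and Grik3 and Grik4 below 0 in all 16 alternatives; Gria1, Gria4, Grik1, Grik2 and Grik5 cross 0 in some.

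AMPA and kainate receptors work with auxiliary subunits and with proteins that assemble, edit and anchor them. Of 39 such partner genes, 30 entered the fit and 0 passed over all genes by limma (0.261% of all genes did) and 0 (0.192% of all genes) by voom; 7 had an unadjusted p under 0.05, 2 higher and 5 lower in PV, beside 3.02% and 9.77% of all genes. The tested partners had a median log2 fold of -0.57, with 9 above 0 and 21 below. Groups did not overlap for 3 tested partners with PV higher and for 7 with PV lower, beside 5.83% and 13.1% of all genes. Of the 30, Cacng5 and Cacng7 reached 1 FPKM in their Drd2 libraries alone, so they had to differ; both are among the 5 lower and the 7 without overlap, and nothing is read from these counts. Partner genes were named as those with the smallest p in each direction, and others were named after their values were seen.

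The cornichons, which bind AMPA receptors and slow their closing, had differences of opposite sign in each of the 16 alternatives. Cnih3 (chromosome 1, 181352628 to 181460641, ENSMUSG00000026514) was at 123, 23.6 and 72.9 FPKM in PV replicates 6, 7 and 8, against 4.02, 3.61 and 11.4 FPKM in Drd2 replicates 1, 2 and 3. Cnih2 (chromosome 19, 5092868 to 5098521, ENSMUSG00000024873) was at 82.6, 9.92 and 36.2 FPKM in PV, against 246, 200 and 95.5 FPKM in Drd2. Neither gene overlapped between the groups. The log2 fold was 3.21 ± 0.68 (SE; adjusted p = 0.0910, limma) for Cnih3 and -2.38 ± 0.70 (SE; adjusted p = 0.196, limma) for Cnih2, so neither passed over all genes. Cnih3 did pass without PV replicate 7, without PV replicate 7 and Drd2 replicate 3, and with quantile normalization, and its adjusted p ran from 0.0406 to 0.550 over the 16 alternatives. As a share of the pair, a measure chosen after the values were seen, Cnih3 made up 59.8%, 70.4% and 66.8% in PV and 1.61%, 1.77% and 10.7% in Drd2.

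**Figure D4:**
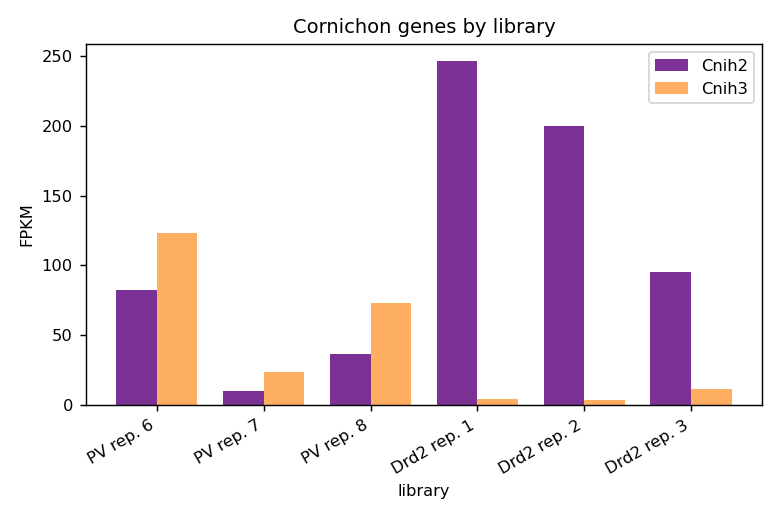
FPKM of the cornichon genes Cnih2 and Cnih3 in each library, PV on the left and Drd2 on the right. Cnih3 is the taller bar in each PV library and Cnih2 in each Drd2 library.

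The TARPs, auxiliary subunits that bring AMPA receptors to the synapse and shape their gating, summed to 11.8, 5.07 and 9.78 FPKM in PV and to 18.2, 34.5 and 24.1 FPKM in Drd2, with no overlap. Cacng5 was at 0.367, 0 and 0.0736 FPKM in PV and 3.07, 2.83 and 1.95 FPKM in Drd2, with a log2 fold of -1.66 ± 0.52 (SE, limma). Cacng7 was at 0.852, 0 and 0 FPKM in PV and 2.53, 1.95 and 3.28 FPKM in Drd2, with a log2 fold of -1.53 ± 0.56 (SE, limma). Both entered the fit through their Drd2 libraries alone, so these folds carry no test. Cacng3 was listed at 0 in every PV library and was at 0.512, 21.3 and 9.26 FPKM in Drd2, and Cacng8 was at 0.0572 to 0.120 FPKM in PV and 0.555 to 3.48 FPKM in Drd2; these were not in the fit. Cacng2, the founding member known as stargazin, overlapped, at 5.77, 1.04 and 7.54 FPKM in PV and 1.14, 0.314 and 5.79 FPKM in Drd2, and so did Cacng4, at 4.71, 3.97 and 2.04 FPKM in PV and 7.51, 7.45 and 3.24 FPKM in Drd2.

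The Shisa proteins and Gsg1l, another group of AMPA receptor partners, summed to 10.7 to 17.0 FPKM in PV and 26.1 to 32.7 FPKM in Drd2. Shisa6, which holds receptors in place at synapses, was at 0.00450, 0 and 0 FPKM in PV and 4.61, 3.96 and 0.400 FPKM in Drd2, and was not in the fit. Gsg1l was at 0.128, 2.27 and 9.25 FPKM in PV and 6.22, 18.2 and 7.20 FPKM in Drd2, and these overlap. Neto2, an auxiliary subunit of kainate receptors, was at 9.26, 18.7 and 19.9 FPKM in PV and 7.25, 10.5 and 1.97 FPKM in Drd2. Its groups overlapped, and the log2 fold was 1.30 ± 0.67 (SE; adjusted p = 0.455, limma). The fold was 0.73 without Drd2 replicate 3, 1.16 without PV replicate 7 and 0.59 without both of these libraries.

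The 5 genes of receptor assembly in the endoplasmic reticulum summed to 61.6 to 173 FPKM in PV and 83.7 to 126 FPKM in Drd2, and 0 of them had an unadjusted p under 0.05. Frrs1l, which guides the assembly of AMPA receptors, was at 21.02 ± 5.42 FPKM in PV and 18.9 ± 6.45 FPKM in Drd2 (SD, n = 3 each). Of the organisers at the cell surface, Olfm1, a secreted protein that binds AMPA receptors, was at 127, 146 and 160 FPKM in PV and 397, 286 and 225 FPKM in Drd2. The groups did not overlap, and the log2 fold of -1.03 ± 0.36 (SE; adjusted p = 0.268, limma) did not pass.

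Scaffolds of the Dlg family anchor receptors under the membrane. Dlg3 was at 9.41, 17.3 and 9.09 FPKM in PV, against 3.02, 5.12 and 4.05 FPKM in Drd2. Dlg2 was at 2.25, 0.714 and 1.22 FPKM in PV, against 6.54, 5.91 and 5.30 FPKM in Drd2. Neither overlapped and neither passed, with log2 folds of 1.32 ± 0.59 (SE; adjusted p = 0.389, limma) and -1.58 ± 0.63 (SE; adjusted p = 0.337, limma). Dlg1 was also lower in PV without overlap, at 1.13, 0 and 2.01 FPKM against 4.32, 4.66 and 3.37 FPKM in Drd2. Its log2 fold was -1.45 ± 0.66 (SE, adjusted p = 0.407, limma). Dlg4 overlapped, with a log2 fold of -0.91 ± 0.65 (SE, adjusted p = 0.590, limma). Epb41l1, which links Gria1 to the actin skeleton, was at 9.77, 4.02 and 14.6 FPKM in PV and 1.95, 5.50 and 0.871 FPKM in Drd2, with overlap; the log2 fold was 1.52 ± 0.75 (SE; adjusted p = 0.442, limma). Grip1, which binds the tails of Gria2 and Gria3, was at 4.50, 2.41 and 0.297 FPKM in PV and 0, 0.224 and 0.105 FPKM in Drd2, and was not in the fit.

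**Figure D5:**
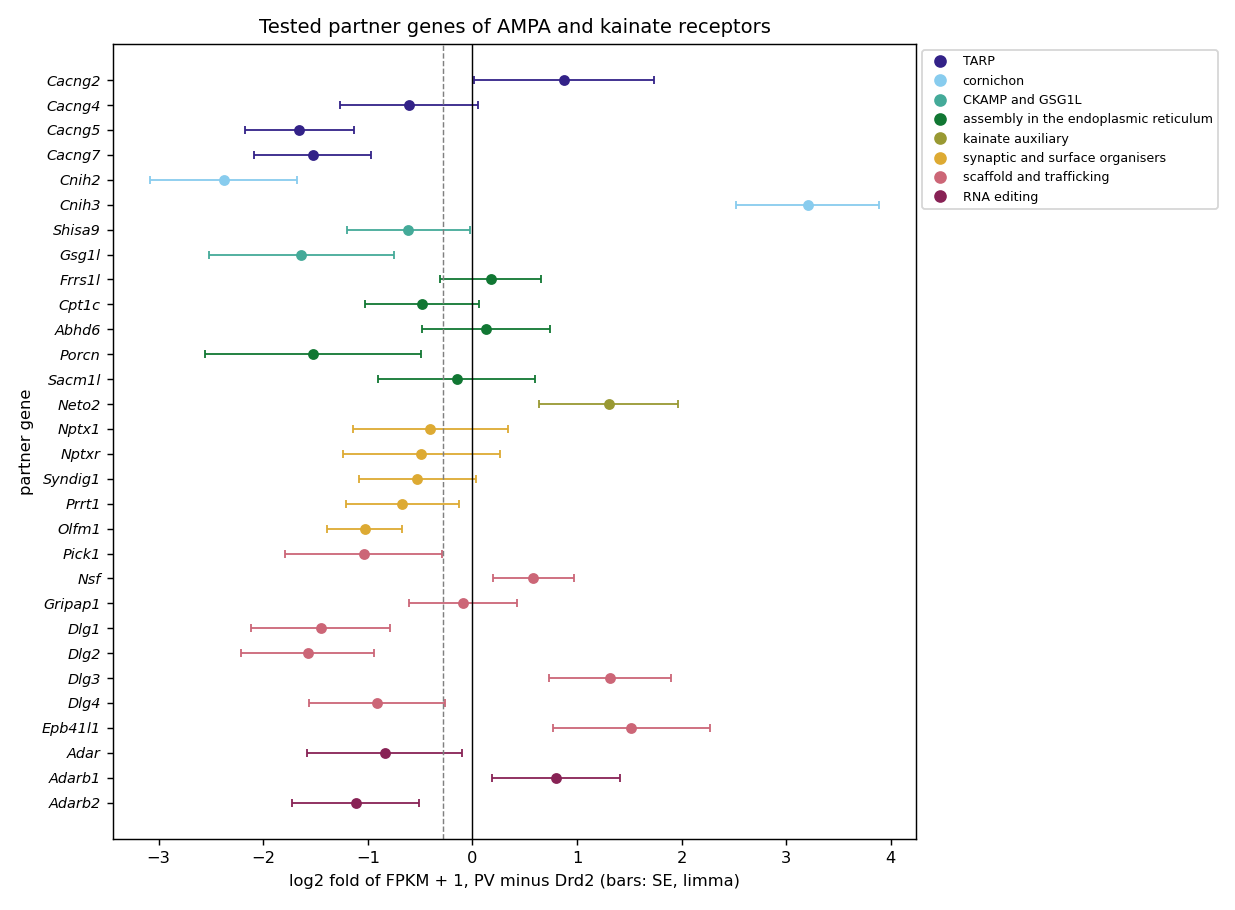
Log2 fold of FPKM + 1, PV minus Drd2, with its SE (limma) for the 30 tested partner genes, coloured by role; the dashed line is the median of all tested genes, -0.28. Cnih3 has the highest fold and Cnih2 the lowest, and no gene passed over all genes.

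Adarb1, which edits the pore-loop codon shown above, was at 10.9, 9.72 and 27.2 FPKM in PV replicates 6, 7 and 8, against 4.53, 8.98 and 11.3 FPKM in Drd2 replicates 1, 2 and 3. The groups overlapped, and the log2 fold was 0.80 ± 0.61 (SE; adjusted p = 0.617, limma). Adarb2, a relative without known editing activity, was at 11.6, 4.07 and 20.7 FPKM in PV and 23.8, 18.7 and 28.0 FPKM in Drd2; its log2 fold was -1.12 ± 0.61 (SE; adjusted p = 0.483, limma).

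The genes most like Gria2 over the 6 libraries, by Pearson r of log2(FPKM + 1) among 6216 other named genes with a mean of at least 5 FPKM, were Ube3a (r = 0.979), Rgs6 (0.979) and Mir1931 (0.976). Those most like Grik5 were Ciapin1 (0.994), Fbxo2 (0.992) and Apmap (0.991). Ciapin1 was at 11.9, 1.82 and 15.4 FPKM in PV and 10.9, 7.32 and 11.8 FPKM in Drd2, and like Grik5 it was lowest in PV replicate 7. The points are libraries that share depth, gene detection and group, so these values describe likeness in 6 libraries only.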

How the data were processed

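Per the labels' protocols, RNA of aspirated neurons went into SMARTer mRNA libraries. The authors deposited FPKM values per gene and library. The submitters' processing notes name STAR, with no version, beside hg38, GRCh38 and mm10; the sources used here do not state the quantifier, its use of strand or the annotation. Identifiers were matched to GENCODE M21 for positions and exon lengths, and 94.1% were found. No gene in the deposited table shares exons with a member there.

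FPKM times exon length gave whole reads (within 0.01 of a whole number) for 97.9% to 98.8% of values up to 20 reads. Depth was 23.8 to 33.7 in units of 1e6 fragments, and 1 read in 1 kilobase is 0.0296 to 0.0420 FPKM; read counts cover counting error only. limma 3.58.1 in R 4.3.3 compared PV with Drd2 on log2(FPKM + 1), with an intensity trend and a 2-sided test. Genes needed 1 FPKM or more in 3 libraries or more. Calls had a Benjamini-Hochberg adjusted p under 0.05. The fit was tested on simulated data. Members and lists were chosen with earlier results of these data known. Named were the 9 members, the partner genes past the threshold and the 4 per direction with the smallest p, and the 3 genes most like the most abundant member of each family. Alternatives were other pseudocounts, filters, scalings, voom on recovered reads and leaving out libraries.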

Additional observations from a re-analysis of the deposited data

How the results depend on the processing

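No paired analysis was possible because the groups share no replicate numbers. The count of 30 genes past the threshold became 4 with a pseudocount of 0.1 FPKM, 68 with a pseudocount of 5 FPKM, 0 with no filter on low values (1509 at an unadjusted p under 0.05 in limma), 68 with quantile normalization, 14 when rescaled over nuclear protein-coding genes and 18 without PV replicate 7 and Drd2 replicate 3 together. With a single library left out it was 1 to 56 (lowest without Drd2 replicate 3, highest without PV replicate 6; 2 without Drd2 replicate 1 and 3 without Drd2 replicate 2). With quantile normalization 32.4% of calls were higher in PV, against 16.7% as reported. No subunit gene passed in any of these settings; the 7 tested subunits became 4 with at least 5 FPKM in 3 libraries and 9 with no filter. The count of partner genes past the threshold was 1 (Cnih3) with quantile normalization and without PV replicate 7 and Drd2 replicate 3 together, and 0 to 1 with single libraries left out. The median of the 9 subunits, -0.31, was 0.53 without PV replicate 7 and Drd2 replicate 3 together and -0.61 to 0.46 with single libraries left out. The difference in the Gria2 share, 8.07 percentage points, was 2.60 to 13.9 with single libraries left out. The median of all tested genes, -0.28, was -0.50 after rescaling to TPM and 0.05 with quantile normalization. Where a value moved, the cause was not tested. At these depths the subunit levels rest on up to 26264 reads, with the lowest at 0.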
